A study of Equus caballus with 6 samples.

Results

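The sequences described here are the short primary-type piRNAs of the Mongolian horse testis, that is, all listed sequences of 25, 26 or 27 nt with T at position 1 and a base other than A at position 10. They were chosen by length and by these base positions alone, and 1422536 of the 4936717 distinct sequences in the table met the rule. Of these, 163671 were 25 nt, 578573 were 26 nt and 680292 were 27 nt long. The study sequenced small RNAs from testes of the Mongolian horse (Equus caballus), with 3 libraries labelled immature testis and 3 labelled mature testis, to follow piRNAs through testis development and spermatogenesis. The labels give breed, tissue and stage (immature or mature), but no age, treatment or stage of spermatogenesis, and they do not say whether each library came from a separate animal. Each p-value below thus sets a difference against the spread among these libraries, which may be technical.

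Piwi-interacting RNAs are germline small RNAs that are loaded into PIWI proteins and guide the silencing of transposons and, in meiosis, the clearing of other transcripts. A uridine at the first position, written T in the sequences, marks piRNAs made by the primary pathway, while an adenine at position 10 marks those cut from a transcript opposite a primary piRNA in the ping-pong cycle. In mammals the 3′ end is trimmed back to the edge of the PIWI protein, so length follows the protein: PIWIL2 (MILI in mouse), present from early germ cells on, holds shorter piRNAs, and PIWIL1 (MIWI), which appears during meiosis, holds longer ones.

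The leading members of the immature libraries are shown first, because most of them begin like abundant RNAs of other classes. Capitals mark positions 1 and 10, the bases used by the rule.
uniq_4342877 (25 nt, begins like miR-30): TgtaaacatCcttgactggaagctt
uniq_2565756 (25 nt, begins like the 5′ end of 18S rRNA): TacctggttGatcctgccagtagca
uniq_2318840 (27 nt, begins like the 5′ end of tRNA-Glu-CTC): TccctggtgGtctagtggttaggattc
uniq_5134990 (27 nt, begins like an internal stretch of 28S rRNA): TggaagtcgGaatccgctaaggagtgt
uniq_2849726 (27 nt, not assigned): TaagacgttTattctgccaacagggtt
uniq_3483765 (26 nt, not assigned): TgacatgaaGgtgctgaacagaatgt
uniq_3606004 (27 nt, not assigned): TgaagtgatGataaagtctatctgagg

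The leading members of the mature libraries follow, since none of them begins with a stretch searched for here from a tRNA, rRNA, Y RNA or microRNA. Most of these stretches were picked with the data in view. Capitals again mark positions 1 and 10.
uniq_2650239 (25 nt): TactgtaaaTtactgaacttggttc
uniq_3384607 (26 nt): TgaagactgTctgtgtactttgtatg
uniq_4346570 (26 nt): TgggacttcTgttctctgcaccgtcc
uniq_2568755 (27 nt): TatctgttgCagtcagaggaactgagc
uniq_2955605 (27 nt): TgacgtaccTcttgaagtagcctgagt
uniq_3445740 (27 nt): TgatgatctTtgagacagaactggatc

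The immature libraries held 1382083 to 2347351 reads in the deposited table and the mature libraries 4032042 to 4550970. Members carried 431110 to 703017 of these reads per immature library and 506983 to 631039 per mature library. The 95% Wilson intervals of the member share reached at most 0.0772 percentage points to either side, and the limit that a count of 0 allows, 3 reads, lay between 0.659 and 2.17 CPM (counts scaled to a table total of 1e6 reads). Both cover counting error only, since the reads carry no molecular identifiers and may be copies of one another. Most members were rare: 1134449 of them, 79.7%, had 1 read over all 6 libraries, against 76.95% of all sequences in the table.

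Short primary-type piRNAs took a larger part of the piRNA pool in immature testis than in mature testis. They made up 31.2%, 29.9% and 32.2% of reads in the immature libraries and 12.2%, 13.2% and 13.9% in the mature ones. The groups did not overlap, and the mean of 31.1% ± 1.12 in immature testis (SD, n = 3) was 2.37 times the 13.1% ± 0.813 in mature testis (exact permutation p = 0.1, two-sided). With 3 libraries against 3 the exact permutation test cannot go below p = 0.1. Of the 12 measures per library tested this way, 11 reached that smallest value, which is 0.109 after Benjamini-Hochberg adjustment over the 12 exact permutation tests. The table is made from whole tissue, so fewer cells of a type and less RNA per cell cannot be told apart, and every share is relative to the other reads in the table.

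All 3 lengths held a larger share in immature testis. Members of 25 nt held 3.51% ± 0.21 of the immature reads against 1.30% ± 0.134 of the mature ones, a ratio of 2.70. For 26 nt the shares were 12.5% ± 0.453 and 5.12% ± 0.395, a ratio of 2.43. For 27 nt they were 15.1% ± 0.854 and 6.67% ± 0.297, a ratio of 2.27 (exact permutation p = 0.1 for each length, n = 3 per group). The proportions among the lengths were alike in both groups: 27 nt held 48.6% ± 1.69 of member reads in immature and 51.0% ± 1.04 in mature testis, and 25 nt held 11.3% ± 0.594 and 9.92% ± 0.414.

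Just above the length limit the ratio between the groups was smaller, and beyond it the direction turned. Reads of 28 nt with the same bases at positions 1 and 10 held 6.64% ± 0.645 of the immature and 5.11% ± 0.231 of the mature reads, a ratio of 1.30. Those of 29 to 30 nt made up 11.2% ± 0.331 and 31.1% ± 1.56. As a share of all reads with T at position 1 and no A at position 10, members came to 58.3% ± 0.777 in immature against 20.5% ± 1.15 in mature libraries (exact permutation p = 0.1). Reads of 25 to 27 nt that carried both T at position 1 and A at position 10 had a ratio similar to that of the members, 2.73, with 12.7% ± 0.5 and 4.67% ± 0.234. Whether this ratio differed from that of the members was not tested.

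Mean base composition was close in both groups, with shifts at single positions. Members made up 59.3% ± 0.186 of all reads of 25 to 27 nt in immature and 64.4% ± 0.632 in mature testis. Mean GC content was 46.4% ± 0.403 and 46.1% ± 0.149, with overlapping groups (exact permutation p = 0.4). The second base was G in 42.6% ± 1.38 of immature and 43.2% ± 0.317 of mature member reads. At position 10, where the rule leaves 3 bases, T held 40.1% ± 0.95 and 39.8% ± 0.146, and C held 23.7% ± 0.204 and 25.99% ± 0.126. The last base was T in 36.4% ± 2.74 and 34.3% ± 1.31, followed by C with 30.1% ± 3.25 and 30.7% ± 1.19. Some other positions differed more. A at position 6 held 26.3% ± 0.884 in immature and 29.6% ± 0.497 in mature testis, and G at position 23 held 32.8% ± 0.667 and 29.9% ± 0.149. Differences at single positions were not tested.

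The immature libraries held more distinct members, and their member reads were less dominated by a few sequences. With every library thinned to 1382083 reads, 301841, 297358 and 322103 distinct members were found in the immature libraries and 93602, 97746 and 95604 in the mature ones. The groups did not overlap, at 307101 ± 13184 and 95651 ± 2072 (SD, n = 3, exact permutation p = 0.1), a ratio of 3.21. Thinning made the table reads equal and not the member reads, of which immature libraries held more. The part of the member share in this ratio was not tested. The size of the ratio rested on rare sequences and depth. It was 1.69 without sequences read once in the table, at 96768 and 57279, and 1.63 as deposited. At equal reads members made up 36.1% ± 0.405 of distinct sequences in immature and 19.2% ± 0.681 in mature testis. In the counts as deposited, the 100 most abundant members held 4.81% ± 0.158 of member reads in immature and 7.93% ± 0.306 in mature testis. The 1000 most abundant held 10.9% ± 0.598 and 20.7% ± 0.754 (exact permutation p = 0.1 for each).

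As deposited, 894444 members (62.9%) were found in immature libraries only, against 48.4% of all sequences in the table. Another 444787 members (31.3%) were found in mature libraries only, against 45.3% of all sequences. The 83305 members found in both groups were 5.86%, near the 6.26% of all sequences, so sharing between the groups was as rare over the table as among the members. The members found in both were the more abundant ones, with 27.4% of member reads in immature and 55.6% in mature testis. In all 6 libraries 3948 members were found, 0.278% of them, against 0.348% of all sequences. With the libraries thinned to equal reads, 997603 members were seen, of which 77.2% were found in immature libraries only, 18.5% in mature libraries only and 4.30% in both. The same shares were not taken over all sequences at equal reads, so whether this split is particular to the members was not tested. Since most members had a single read, absence from a group is for most of them not detectable at this depth.

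Most member reads of mature testis had a longer form with the same 5′ end in the same library, and most of those of immature testis did not. A longer form was defined as a sequence of 29 to 32 nt with the same first 25 nt. At equal reads, 25.7%, 26.9% and 27.1% of member reads in the immature libraries and 60.6%, 62.2% and 64.4% in the mature ones had such a form. The groups did not overlap, at 26.6% ± 0.774 and 62.4% ± 1.88 (SD, n = 3, exact permutation p = 0.1). The direction was the same at each length: 21.7% and 56.1% for 25 nt, 25.6% and 62.5% for 26 nt, and 28.5% and 63.6% for 27 nt. With at least 2 reads of the longer form required, the values were 15.8% ± 0.299 and 51.9% ± 2.05.

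The share of the pool in long reads moved with this result, at 11.2% and 31.1% for 29 to 30 nt, and its part in the result was not tested. In the reverse direction, 49.6% ± 3.58 of immature and 71.5% ± 1.79 of mature reads of 29 to 32 nt with T at position 1 and no A at position 10 had a form of 25 to 27 nt. Among reads of 28 nt with these bases, 39.5% ± 2.08 in immature and 80.6% ± 1.16 in mature testis had a form of 29 to 32 nt.

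At 5′ ends that were present in every library, the same ends carried shorter piRNAs in immature testis. Of 1078754 ends with at least 1 member, 835 had at least 10 reads in each library, counted over all lengths. Averaged over these ends, 42.5%, 43.3% and 42.9% of reads in the immature libraries and 27.8%, 29.1% and 29.1% in the mature ones were 25 to 27 nt long. The means of 42.9% ± 0.401 and 28.7% ± 0.755 did not overlap between groups (SD, n = 3, exact permutation p = 0.1). With the libraries of each group pooled, the share of 25 to 27 nt was lower in mature testis at 706 of the 835 ends, higher at 107 and equal at 22, with a median difference of -8.17 percentage points.

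The most frequent length at these ends was 27 nt in immature testis, with 22.4% ± 0.443 of reads, and 29 nt in mature testis, with 23.9% ± 1.39. At 26 nt the shares were 16.0% ± 0.627 and 10.4% ± 0.439, and at 30 nt they were 13.7% ± 0.258 and 19.9% ± 0.575. Reads at these ends averaged 28.16 nt ± 0.00875 in the immature and 28.74 nt ± 0.031 in the mature libraries. These ends held 8.49% of member reads in immature and 15.3% in mature testis, so they describe the abundant minority.

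One end shows both forms. The 27 nt member uniq_2955605 and the 29 nt uniq_3925108, chosen for display after its values were seen, begin at the same base and differ by a pair of bases at the 3′ end, marked in capitals below.
uniq_3925108 (29 nt): tgacgtacctcttgaagtagcctgagtGT
At this end 46.9%, 36.7% and 33.4% of the reads in the immature libraries and 19.1%, 22.8% and 21.1% in the mature ones were 25 to 27 nt long. The 29 nt form was counted at 42.0, 138.0 and 114.9 CPM in the immature libraries and at 1123, 1040 and 1560 CPM in the mature ones, a ratio of 12.6. The 27 nt form was counted at 36.2, 85.6 and 56.8 CPM in immature and at 272, 317 and 425 CPM in mature libraries, a ratio of 5.68. Both forms were thus higher in every mature library than in any immature one, the longer form by the larger factor. Reads of 29 nt made up 58.9% of this end in immature and 74.3% in mature testis when libraries were pooled.

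Other leading ends kept their lengths. At the end of the member uniq_4346570, 26 nt held 77.9% of pooled reads in immature and 80.7% in mature testis. At that of uniq_3976179 the shares of 26 nt were 71.8% and 69.0%. At the end of uniq_2849726 no read was longer than 27 nt in either group. By contrast, at the end of uniq_3445740 the share of 27 nt was 56.9% in immature and 34.8% in mature testis, and that of 29 nt was 7.63% and 23.5%.

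Signs of the ping-pong partner were measured by the first 10 nt, which a partner on the opposite strand shares as their reverse complement. Because members begin with T and lack A at position 10, their partners necessarily carry A at position 10 and do not begin with T. At equal reads, 37.1%, 36.6% and 36.0% of member reads in the immature libraries and 21.5%, 22.3% and 20.01% in the mature ones had a sequence with such a start in their library. The share expected without ping-pong was read from windows shifted along the member by a few bases. The excess over these shifted windows was 1.82 ± 0.857 percentage points for the immature libraries and -3.53 ± 1.12 for the mature ones (SD, n = 3, exact permutation p = 0.1).

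The shifted windows of this measure need not begin with T or lack A at the end, as the window at position 1 must. With shifted windows of the same end bases, a choice made after the data were seen, the excess was 4.71, 5.18 and 4.46 percentage points in the immature libraries and 1.97, 3.58 and 2.92 in the mature ones. The means were 4.78 ± 0.369 and 2.83 ± 0.81, and each library was above 0 (exact permutation p = 0.1 for the difference). With partners of at least 2 reads the excess was -0.747 ± 0.622 and -2.21 ± 0.401 over any shifted windows, below 0 in each library, and 2.14 ± 0.356 and 1.17 ± 0.507 over those of the same end bases. The sign of the mature mean thus depended on the shifted windows with and without the limit of 2 reads. That of the immature mean did so only with partners of at least 2 reads. The immature mean lay above the mature one in each of these settings.

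Reads that begin like other abundant RNAs were a small part of the members, larger in immature testis. Sequences starting with one of 4 tags of 9 nt, from tRNA-Glu-CTC, tRNA-Glu-TTC, tRNA-Asp-GTC and 18S rRNA, held 0.931% ± 0.0845 of the member reads of immature libraries against 0.293% ± 0.053 in mature ones (SD, n = 3, exact permutation p = 0.1). A further 11 tags, picked with the data in view, brought this to 2.86% ± 0.219 and 0.754% ± 0.132. The difference was one of reads: with each distinct sequence counted once, the 4 tags held 0.0330% ± 0.00327 and 0.0323% ± 0.00385 (exact permutation p = 0.7). The names rest on general knowledge of these RNAs and not on a match to a reference. With every sequence that starts with any of these tags removed, members held 31.1% ± 0.942 of the immature and 13.1% ± 0.811 of the mature reads. Reads of tRNA, rRNA or other abundant RNAs with other starts were not searched for and may remain in these shares.

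Members starting with TCCCTGGTG, the 5′ end of tRNA-Glu-CTC, were the most abundant, at 2137, 2412 and 2654 CPM in the immature and 348, 311 and 264 CPM in the mature libraries. Those starting with TTCTCACTA, near the 3′ end of Y1 RNA, a small RNA bound by the Ro protein, were at 1207 ± 472 CPM in the immature libraries and at 55.3 ± 27.6 CPM in the mature ones. Members starting with TGGAAGTCG, from 28S rRNA, were at 1027 ± 164 and 47.6 ± 23.6 CPM. Those starting with TAACAGGTC, from 18S rRNA, were at 403 ± 33.8 and 10.6 ± 0.644 CPM. None of these sets overlapped between the groups, but 11 of the 15 tags were picked with the data in view. Their direction and the lack of overlap thus support no conclusion. The smallest ratio among the 15 tags was 2.20, for the rare tRNA-Glu-TTC start TCCCATATG, at 7.51 ± 3.31 and 3.41 ± 1.10 CPM, where replicate 1 of each group overlapped.

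Single sequences were tested with edgeR on all 31788 sequences that passed its filter on low counts, of which 5395 were members. The other 1417141 members were too rare. The 5395 held 14.8% of member reads in immature and 31.1% in mature testis. A sequence high in 1 group can pass through that group alone, so the counts describe the abundant members and support nothing about the rest. With libraries scaled to their totals, edgeR's quasi-likelihood test called 2912 members (54.0%) higher in mature testis, against 77.7% of all sequences tested, at a Benjamini-Hochberg adjusted p under 0.05. It called 2326 members (43.1%) higher in immature testis, against 20.3% of all sequences tested. The median log2 fold change, mature over immature, was 1.83 over the members and 3.15 over all sequences tested. Without mature replicate 1, 2 or 3 the member median turned to -2.87, -3.28 and -3.39.

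The split of these calls depended on the libraries, the filter and the scaling. Higher in mature and in immature testis were 2427 and 3213 members without mature replicate 1, 2234 and 3228 without replicate 2, and 2042 and 3209 without replicate 3. Of these member calls 43.0%, 40.9% and 38.9% were toward mature testis, against 70.9%, 71.1% and 70.0% of the calls over all sequences tested. With no filter beyond 6 reads over all libraries the member counts were 11899 and 21103 of 63406 tested. Over all 294186 sequences then tested they were 91877 and 53255. TMM factors, which assume that most sequences do not change, were 0.36 to 0.442 for the immature and 2.38 to 2.62 for the mature libraries. With them the median over all sequences tested was 0.62 and that over the members -0.73. edgeR then called 106 members (1.96%) higher in mature testis, against 8.41% of all sequences, and 2452 (45.4%) higher in immature testis, against 21.9%. All 106 and all 2326 members called with the other scaling were the same on both. Calls toward mature testis were thus 55.6% of all member calls with library totals and 4.14% with TMM. Over all sequences tested they were 79.3% and 27.7% of the calls, so this share fell over the whole table too.

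Of all 5395 members tested, 89.0% had a longer form in the table, longer forms outnumbered those of 25 to 27 nt at the end of 33.1%, and the median share of 25 to 27 nt at the end was 66.7%. Of the 2326 higher in immature testis, 80.7% had a longer form, and longer forms outnumbered short ones for 189 (8.13%). Of the 2912 higher in mature testis, 95.3% had a longer form, and longer forms outnumbered short ones for 1517 (52.1%). The median share of 25 to 27 nt at the end was 83.3% and 39.5%. For the 106 members called higher in mature testis with both scalings these values were 87.7%, 42.5% and 50.5%. Of the members called higher in immature testis, 80 began with one of the 15 tags, and 2 of those called higher in mature testis did. Most of the 15 tags were picked with the data in view, so these counts depend on that choice and support no conclusion. How far the choice shaped them was not tested. The sets of called members were chosen by the test, and the shares are a description without a test of the difference.

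The 27 nt uniq_2318840, which begins like tRNA-Glu-CTC, was the most abundant member of the immature libraries. It was counted at 962, 1046 and 1128 CPM in the immature and 161, 122 and 109 CPM in the mature libraries, a log2 fold change of -3.00 ± 0.74 (SE, edgeR adjusted p = 6.61e-05). All immature libraries lay above all mature ones. The leading members of immature testis were picked by their high mean in the immature libraries, so their direction supports no conclusion. The 26 nt uniq_2319268, shorter by the last base, was at 942 ± 86.3 and 122 ± 9.68 CPM. At their shared end these short forms were a minority: 31 nt held 56.5% of pooled reads in immature testis, and 30 nt held 45.4% in mature testis.

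Members that begin like rRNA were also among the leading ones. The 27 nt uniq_5134990, which begins like 28S rRNA, was counted at 822, 671 and 881 CPM in the immature and 47.3, 36.0 and 14.7 CPM in the mature libraries, a log2 fold change of -4.60 ± 0.79 (edgeR adjusted p = 3.13e-08). Unlike the tRNA pair, 27 nt was its main length, with 89.7% of pooled reads at its end in immature and 78.7% in mature testis. The 25 nt uniq_2565756, which begins like the start of 18S rRNA, was at 278 ± 72.6 and 43.9 ± 6.19 CPM, and 31 nt was the main length of its end. The 25 nt uniq_4586773, which also begins like 28S rRNA, was counted at 186, 185 and 415 CPM in the immature libraries, of which replicate 3 stood above the others. In mature testis it was at 35.4 ± 1.81 CPM.

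Members beginning like miR-30, a microRNA family, held 2 of the named places. The 25 nt uniq_4342877 was counted at 477, 347 and 358 CPM in the immature and 18.6, 40.2 and 27.9 CPM in the mature libraries, a log2 fold change of -3.77 ± 0.74 (edgeR adjusted p = 1.17e-06). The 26 nt uniq_2707894 was at 131 ± 23.0 and 14.8 ± 2.45 CPM. These lengths are longer than a mature microRNA. Listed sequences span 25 to 32 nt, so shorter reads with this start could not be counted. Within that range, 25 and 26 nt together with 27 nt held 99.96% of pooled immature reads at this end.

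The remaining 3 leading members of immature testis began with none of the tags. The 27 nt uniq_2849726 was counted at 308, 946 and 338 CPM in the immature and 44.2, 40.9 and 34.1 CPM in the mature libraries. Replicate 2 held most of it: the log2 fold change of -3.74 ± 0.75 became -3.02 without it (edgeR adjusted p = 1.47e-06 with all libraries). The 26 nt uniq_3483765 was counted at 176, 322 and 230 CPM in the immature and 15.9, 10.2 and 9.89 CPM in the mature libraries, a log2 fold change of -4.34 ± 0.75 (edgeR adjusted p = 4.82e-08). At its end 26 nt held 87.7% of pooled reads in immature and 76.5% in mature testis, so longer forms were few.

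The 27 nt uniq_3606004 carries the letters TGATGA near its start and CTGA near its end. These letters occur in the C and D boxes of small nucleolar RNAs that guide rRNA methylation. This member was counted at 487, 434 and 661 CPM in the immature and 22.2, 81.1 and 40.4 CPM in the mature libraries. Its log2 fold change was -3.46 ± 0.74 (edgeR adjusted p = 5.53e-06), and -4.07 without mature replicate 2. The search asked for TGATGA lying wholly within bases 4 to 15 and CTGA within the last 7 bases of the listed strand. Both motifs were found in 971 members, 0.0683% of them, against 0.103% of all sequences. Of every 1e6 member reads these held 6968 ± 1576 in immature and 2059 ± 611 in mature testis, and the groups did not overlap. Over all sequences the values were 7222 ± 1776 and 1020 ± 226, so the difference was not particular to the members. A match of these letters is a description and names no gene.

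All 9 leading members of mature testis were higher in each mature library than in any immature one, and none began with a tag. Most tags were picked with the data in view, and the part of that choice in this absence was not tested. The 26 nt uniq_3384607 led, at 20.3, 36.6 and 47.2 CPM in the immature and 621, 436 and 440 CPM in the mature libraries, a log2 fold change of 3.84 ± 0.75 (edgeR adjusted p = 1.03e-06). With TMM factors its log2 fold change was 1.27 ± 0.61 (adjusted p = 0.103). Reads of 26 nt were the most frequent at its end in both groups, with 39.5% of pooled reads in immature and 44.8% in mature testis.

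Second at 26 nt was uniq_4346570, counted at 18.1, 89.0 and 41.7 CPM in the immature and 361, 408 and 498 CPM in the mature libraries. Its log2 fold change was 3.08 ± 0.72 with library totals (edgeR adjusted p = 3.06e-05), 3.82 without immature replicate 2, and 0.53 ± 0.60 with TMM. The 27 nt uniq_2568755 was counted at 21.0, 98.4 and 83.4 CPM in the immature and 614, 324 and 362 CPM in the mature libraries, a log2 fold change of 2.68 ± 0.71 (edgeR adjusted p = 0.000203). At its end 27 nt was the most frequent length in both groups, at 52.0% and 44.0% of pooled reads.

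Leading at 25 nt, uniq_2650239 was counted at 4.34, 21.3 and 19.8 CPM in the immature and 195, 127 and 175 CPM in the mature libraries, a log2 fold change of 3.43 ± 0.72 (edgeR adjusted p = 4.33e-06). Reads of 25 nt were 53.8% of its end in immature and 62.2% in mature testis. The others were uniq_1870689 at 13.4 ± 9.74 and 124 ± 17.8 CPM, uniq_4771320 at 28.8 ± 21.3 and 129 ± 37.8 CPM, uniq_3976179 at 30.2 ± 6.85 and 214 ± 29.1 CPM, uniq_2955605 at 59.5 ± 24.8 and 338 ± 78.5 CPM, and uniq_3445740 at 47.5 ± 21.2 and 274 ± 42.0 CPM, for immature and mature testis. At the ends of uniq_4771320 and uniq_1870689 the short form was not the main one in mature testis, where 28 nt held 34.7% and 30 nt held 38.5% of pooled reads. With TMM factors none of the 9 passed the threshold, so these calls rest on scaling to the table totals, except for uniq_3384607, which DESeq2 with its own size factors also called (log2 fold change 1.37, adjusted p = 0.00182).

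The last base of a member varied far more than the 11 other positions examined. The leading mature member uniq_4346570 is listed with all 4 last bases, shown in capitals.
uniq_4346570 (last base C): tgggacttctgttctctgcaccgtcC
uniq_4346581 (last base T): tgggacttctgttctctgcaccgtcT
uniq_4346544 (last base A): tgggacttctgttctctgcaccgtcA
uniq_4346550 (last base G): tgggacttctgttctctgcaccgtcG
In mature testis their means were 422 CPM for C, 167 CPM for T, 99.2 CPM for A and 15.5 CPM for G, and in immature testis 49.6, 24.7, 11.7 and 2.84 CPM. The listed form with C held 55.9% of the 4 in immature and 60.0% in mature testis. The order of the last bases was the same in both groups.

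Over all members, sequences that were identical but for the last base and had at least 20 reads together formed 16962 groups. In these, 21.4% ± 4.05 of immature and 23.8% ± 1.70 of mature reads carried a last base other than the most frequent one (SD, n = 3), and the groups of libraries overlapped. The same measure was 1.57% ± 0.301 and 1.44% ± 0.115 at the base before the last, and 0.372% ± 0.0194 and 0.242% ± 0.0287 at position 8. Where C was the most frequent last base, T held 15.6% of pooled reads, A 7.67% and G 1.61%. Where G was the most frequent, A held 12.8%, T 10.3% and C 1.85%. Not every group was varied: all 4 last bases were listed in 39.7% of the groups and 1 in 9.65%, and of the 542 groups with at least 300 reads, 42 had 1. For example, uniq_4586773, uniq_2650239, uniq_4771320 and uniq_2707894 are listed with their own last base alone. The measure was chosen after the data were seen and is a description without a test. How reads were trimmed was not given in the sources used here, and whether the varied last base, or a difference of 1 nt in length, lies in the RNA or in the trimming was not tested.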

How the data were processed

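Per the labels' protocols, small RNAs of total RNA received adapters at their 3′ and 5′ ends, and products were size-selected on a gel. Per the file headers, the authors' table gives read counts for each distinct sequence in each library; the values are whole and not normalized. Bowtie appears, with no role or version, per the submitters' processing notes. How piRNAs were called, and on which genome build, was not given in the sources used here, and positions in the genome were not analysed here. The totals are those of listed piRNAs, not of the libraries. Listed sequences were 25 to 32 nt long, so every share of a length at an end leaves out shorter reads. Members, tags and lists were chosen with earlier results of these data known.

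Members were found with pandas 2.3.3 and numpy 2.4.6, and counts were scaled to the column totals. Measures of diversity, longer forms and partners used libraries thinned without replacement to 1382083 reads, and other measures the counts as deposited. Library measures were compared by an exact permutation test of the difference of means. In R 4.3.3, edgeR 4.0.16 gave the tests of single sequences on the counts, after filterByExpr, with a quasi-likelihood test and Benjamini-Hochberg adjustment over all sequences that passed. Standard errors were taken as the absolute log2 fold change over the root of F. DESeq2 1.42.0, TMM factors, other filters, a replicate block and leaving out each library were alternatives. The partner measure, thinning, the permutation test and edgeR with library totals were checked on simulated or made-up data. The simulation for edgeR raised and lowered equal numbers of sequences, so it does not check the choice of scaling. DESeq2, TMM factors and the other alternatives were not checked this way. The named members are the 3 with the highest mean CPM per group at each length, and the 5 called in each direction with the highest mean CPM. The end shown with its 29 nt form, the last-base groups and the box motifs were chosen after values were seen.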

Additional observations from a re-analysis of the deposited data

How the results depend on the processing

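The 12 measures per library kept the sign of the difference between groups under every alternative run, but not always its size. The difference in tag share was -0.639 percentage points over reads and -0.000748 over distinct sequences, that in distinct members -211450 at equal reads and -39489 without sequences read once, and that in partner excess -5.34 and -1.46 with partners of at least 2 reads. Of the counts of calls, 13 alternatives moved them by over 1.5 times. Members called higher in mature testis, 2912 in the report, were 106 with TMM factors, 143 with DESeq2, 11899 of 63406 tested without a filter beyond 6 reads over all libraries, 634 of 1198 at 10 CPM in 3 libraries, and 997 of 1908 with libraries thinned to equal reads. Over all sequences tested, 24713 in the report, the counts were 2672 with TMM factors and 4033 with DESeq2. Without the filter, at 10 CPM and with thinned libraries they were 91877 of 294186, 7572 of 9322 and 10624 of 13389. Members called higher in immature testis, 2326 in the report, were 21103 without a filter, 550 at 10 CPM and 874 with thinned libraries. Over all sequences tested these counts were 53255, 1664 and 2564, with 6462 in the report. Leaving out 1 library gave 2042 to 4971 members higher in mature and 2998 to 3581 higher in immature testis. Over all sequences tested it gave 19736 to 40498 and 8396 to 9594. Without immature replicate 1, 2 or 3 the mature counts of members were 4607, 4971 and 4912. Without immature replicates 1 and 3 the immature counts of members were 3581 and 3578. The filter then passed 8660 to 9288 members. The median log2 fold change of the members passed was -2.87, -3.28 and -3.39 without mature replicate 1, 2 and 3.

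Single members that turned direction were uniq_4771320, at -0.39 with TMM and -0.19 with DESeq2, uniq_2955605 at -0.077 with TMM and uniq_3445740 at -0.044 with TMM. The 9 leading members of mature testis lost their call with TMM, and 8 of them with DESeq2. Leaving out immature replicate 2 moved 2 more of them by over 1.5-fold, uniq_4771320 to 2.79 and uniq_1870689 to 3.78. With the replicate block edgeR called 2784 and 2284 members, against 24251 and 6284 of all 31788 sequences tested. Same-numbered libraries were correlated at 0.0344, -0.0879 and 0.0119 in their deviations. Pairing by number was not seen in these values, but they cannot exclude it, and the labels do not give it. Groups of 3 cannot give an exact permutation p below 0.1, and the 1134449 members with 1 read carry no information on single sequences.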
